A study of Rattus norvegicus with 12 samples.

Results

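The immediate early and stress genes described here are Fos, Fosb, Jun, Junb, Atf3, Egr1, Myc, Ier3, Dusp1 and Zfp36, measured in the rat prostate. Each gene was found by its symbol in the array's gene name column among non-control probes, and each matched 1 probe, so the 10 genes rest on 10 of 41012 probes. All 10 probes passed the brightness filter, under which 36098 probes and 17091 named genes were kept. The study used male rats of 10 weeks and asked how the prostate responds to partial bladder outlet obstruction, here a rubber ring tied around the urethra, and whether Eviprostat alters that response. Eviprostat is a plant-based medicine given for an enlarged prostate. The sham/vehicle group had a sham operation and received 0.1% Tween 80, and the sham/Eviprostat group had the same operation and received Eviprostat at 18 mg/kg, 2 times a day. The obstruction/vehicle group had the obstruction and vehicle, and the obstruction/Eviprostat group had the obstruction and the same dose of Eviprostat (36 mg/kg daily). Treatment lasted 5 days in all groups, and the prostate was taken on day 6, 2 h after the last dose. Sham rats were first dosed 5 days after surgery and obstructed rats from the day after it, so the operation and the time since surgery cannot be told apart. Each group held 5 or 6 animals whose tissue was pooled before labelling, and 3 arrays were made per group. The labels call these arrays biological replicates, but it is not clear whether they came from separate pools. A p-value below therefore measures the spread between arrays, which cannot be taken as the spread between animals. In whole tissue, a change in the number of cells that express a gene and a change in RNA per cell cannot be told apart.

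Immediate early genes are transcribed within minutes of a stimulus, because the factors that switch them on, among them serum response factor and CREB, are already present and are activated by MAP kinases and calcium. Fos and Jun proteins pair into the transcription factor AP-1, ATF3 joins the same family under stress, and EGR1 and MYC act on further sets of genes. Their messages are short-lived and the response is shut down by other members of the same wave: DUSP1 removes the phosphates from MAP kinases, and ZFP36 (tristetraprolin) binds AU-rich elements in messages and hastens their decay. In the prostate such genes are known to respond to androgen, growth factors, inflammation and the handling of tissue.

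The probes are 60-base oligonucleotides, and the letters below show what was measured for both FOS proteins, for Junb, whose difference was among the firmest, and for Dusp1. Their genome positions, on rat build rn3, come from the array design. The Fos probe lies in the stretch that codes for the leucine zipper, through which FOS pairs with JUN proteins, and the capitals in the Junb probe mark the stop codon. The Dusp1 probe spans 320 bases of the genome, more than its own length.
Fos (chr6:109564555-109564614, plus strand): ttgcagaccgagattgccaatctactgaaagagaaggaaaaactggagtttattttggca
Fosb (chr1:78746783-78746842, minus strand): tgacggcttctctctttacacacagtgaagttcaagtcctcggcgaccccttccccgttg
Junb (chr19:24837607-24837666, plus strand): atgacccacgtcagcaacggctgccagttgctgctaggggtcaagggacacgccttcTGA
Dusp1 (chr10:16945391-16945710, plus strand): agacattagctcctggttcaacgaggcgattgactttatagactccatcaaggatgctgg
The probes do not resemble each other, since the longest run of bases shared in any of the 45 pairs of member probes was 9. Exon and UTR positions were not read, because no annotation of rn3 was used here.

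AU-rich elements, the sequences that ZFP36 binds, are built around ATTTA, and 2 of the 10 probes contain it. The first 30 bases of both probes are given with ATTTA in capitals.
Ier3: ATTTAttctaacttatgcaggggtgcgaga
Zfp36: ATTTAtgacgactttATTTAttgtaataag
ATTTA occurs in 7.61% of the array's 60-base probes. The longer form TTATTTATT is in the Zfp36 probe, where it overlaps an ATTTA, and in 0.139% of all probes. A match is a description of the letters and was not tested as a site.

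Promoter sequence from RefSeq (build GRCr8) was available for 5 of the 10 genes, and 150 bases before the start are shown for each. These 5 were set by the sequences available and not by their response to obstruction. Capitals mark CArG boxes, the elements that serum response factor binds, in Egr1 and Zfp36. In Egr1 they also mark TGACG, the core of a cyclic AMP response element, on the opposite strand, and in Dusp1 the whole element, which reads TGACGTCA. In Junb the capitals mark CCAAT first and a TATA box after it.
Egr1 (chr18:26736928-26737077, plus strand): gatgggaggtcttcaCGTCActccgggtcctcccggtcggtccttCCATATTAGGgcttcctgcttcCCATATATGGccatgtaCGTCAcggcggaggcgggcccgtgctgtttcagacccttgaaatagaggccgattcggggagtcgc
Dusp1 (chr10:17184703-17184852, plus strand): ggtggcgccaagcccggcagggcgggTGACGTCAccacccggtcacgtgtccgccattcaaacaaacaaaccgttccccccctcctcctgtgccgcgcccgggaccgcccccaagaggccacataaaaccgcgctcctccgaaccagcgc
Junb (chr19:40080976-40081125, plus strand): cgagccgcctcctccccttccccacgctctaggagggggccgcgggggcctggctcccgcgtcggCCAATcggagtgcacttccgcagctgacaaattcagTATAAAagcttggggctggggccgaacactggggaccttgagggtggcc
Zfp36 (chr1:92799109-92799258, minus strand): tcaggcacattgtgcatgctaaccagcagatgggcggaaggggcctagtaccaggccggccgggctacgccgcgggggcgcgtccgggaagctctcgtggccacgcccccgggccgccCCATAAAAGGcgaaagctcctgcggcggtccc
Fosb (chr1:88089185-88089334, minus strand): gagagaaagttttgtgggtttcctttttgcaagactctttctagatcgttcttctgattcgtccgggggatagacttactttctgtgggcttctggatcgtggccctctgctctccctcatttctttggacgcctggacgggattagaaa
The Egr1 promoter held CArG boxes at -105 to -96 and -83 to -74 from its start, and the Zfp36 promoter 1 at -32 to -23. Further upstream than the printed bases, TGACG also lay in Junb (-155 to -151) and Dusp1 (-172 to -168), and CCAAT in Egr1 (-228 to -224). Over windows from 250 bases before to 50 after the start, searched on both strands, 1.64% of 33469 promoters held a CArG box, 1.83% held the whole cyclic AMP response element, 21.2% held its core, which the whole element contains, and 37.5% held the CCAAT box. The TATA box, searched as TATAAA on the gene's strand, was in 8.8%. The AP-1 site TGANTCA, present in 7.33% of promoters, was in none of the 5 windows, which says only that these letters are not there. An EGR1 site, searched as GCGNGGGCG and present in 4.98% of promoters, was found in Zfp36. The E-box CACGTG (6.42%) was found in Dusp1. A loose NF-kappa-B pattern, GGGRNNNYCC (R for A or G, Y for C or T), was in 15.2% of promoters. It was found in Egr1, Dusp1 and Zfp36, but none of their matches meets the stricter GGGRNNYYCC. None of the searched motifs lay in the Fosb window.

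Every array paired the group's own RNA, labelled with Cy5, with sham/vehicle RNA labelled with Cy3, and values are log2 ratios of Cy5 to Cy3 after background correction and loess. Groups were compared with the 3 arrays on which both dyes carried sham/vehicle RNA. The share of spots called well above background in the Cy5 channel was 70.9% to 88.4%, with the 4 arrays of slide 1 dimmer than the rest, and no member was saturated. Zfp36 was the dimmest case, in Cy5 well above background on 2 of 3 sham/vehicle, 3 of 3 sham/Eviprostat, 3 of 3 obstruction/vehicle and 2 of 3 obstruction/Eviprostat arrays, while the other 9 genes were well above it on all 12. In Cy3 Zfp36 was well above background on no sham/vehicle array and only on replicate 1 of each other group. Its ratios thus mostly rest on a Cy3 signal near background. All 11 of the prostate epithelial markers tested, Pbsn (probasin) among them, were detected on at least 11 arrays.

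One array stood apart in its background correction. Normexp, the correction used, models each array's background from all its spots, and on obstruction/vehicle replicate 2 it returned a mean Cy3 background below 0, of -393 units (-510 in Cy5). Sham/vehicle replicate 1 and obstruction/Eviprostat replicate 1 also had negative Cy3 means (-156 and -113), against 18.2 to 54.8 on the other 9 arrays. On these 3 arrays 10 spots lay more than 100 units below their local background in Cy3. Leaving out the 61 spots that lay below their local background in either channel, of 45018 on each of the 12 arrays, brought the 3 means to 49.9, 19.5 and 18.6. This refitted correction was chosen after the data were seen. It is given beside the results whose call or count it changes, and the values without obstruction/vehicle replicate 2 are given for the genes and lists that rest on that array.

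**Figure D1:**
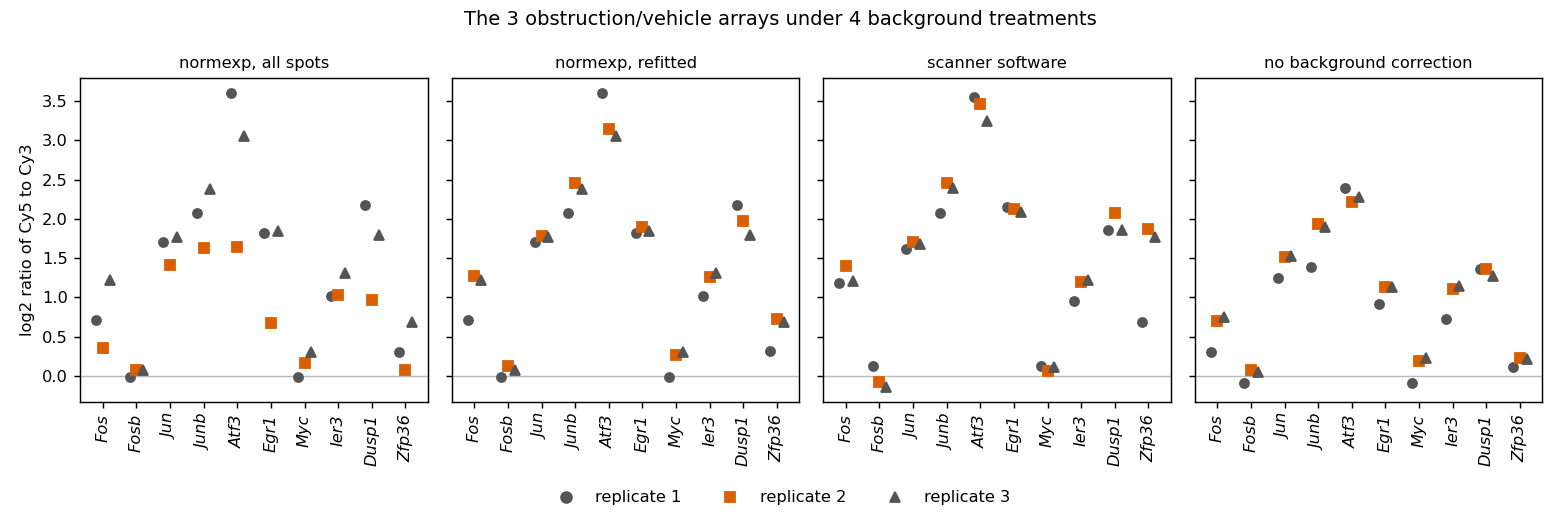
Log2 ratio of Cy5 to Cy3 (vertical axis) of the 10 genes on the 3 obstruction/vehicle arrays, with normexp fitted to all spots, normexp refitted, the scanner software's own log ratio and no background correction. Replicate 2 (orange squares) fell to 1.64 for Atf3 and 0.67 for Egr1 with all spots, and stood at 3.14 and 1.89 after the refit, beside 3.06 and 1.85 on replicate 3.

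Obstruction was compared with the sham operation under vehicle. Of the 10 genes, 7 were higher and 0 lower: Fos, Jun and Junb among the AP-1 genes, Atf3, Egr1, Ier3 and Dusp1. The rises ran from 1.87-fold for Fos to 6.25-fold for Atf3, and the median difference over the 10 genes was 1.24 on the log2 scale, beside -0.01 over all probes. The share of all tested probes called higher was 7.16%, and 4.45% were called lower. Fosb, Myc and Zfp36 did not pass the test. The obstruction/vehicle arrays lay wholly above the sham/vehicle arrays for 8 genes, and for 12.9% of all probes. After the refitted background 8 genes were higher, Zfp36 in addition, where 12.8% of all probes were called higher, and without obstruction/vehicle replicate 2 again 7 were higher.

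Eviprostat in obstructed rats was compared with vehicle in obstructed rats, so this comparison shares its obstruction/vehicle arrays with the first and opposite signs of the 2 are not independent. Here 0 genes were higher and 6 lower: Fos, Jun, Junb, Atf3, Ier3 and Dusp1. The differences ran from 1.70-fold lower for Fos to 4.41-fold lower for Atf3, with a median of -1.09 over the 10 genes and 0.01 over all probes. Of all probes 5.89% were called lower and 3.9% higher. The obstruction/Eviprostat arrays lay wholly below the obstruction/vehicle arrays for 7 genes, and for 12.4% of all probes. After the refit 9 genes were lower, all but Fosb, where 11.7% of probes were called lower. Without obstruction/vehicle replicate 2 there were 7, with Egr1 added.

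**Figure D2:**
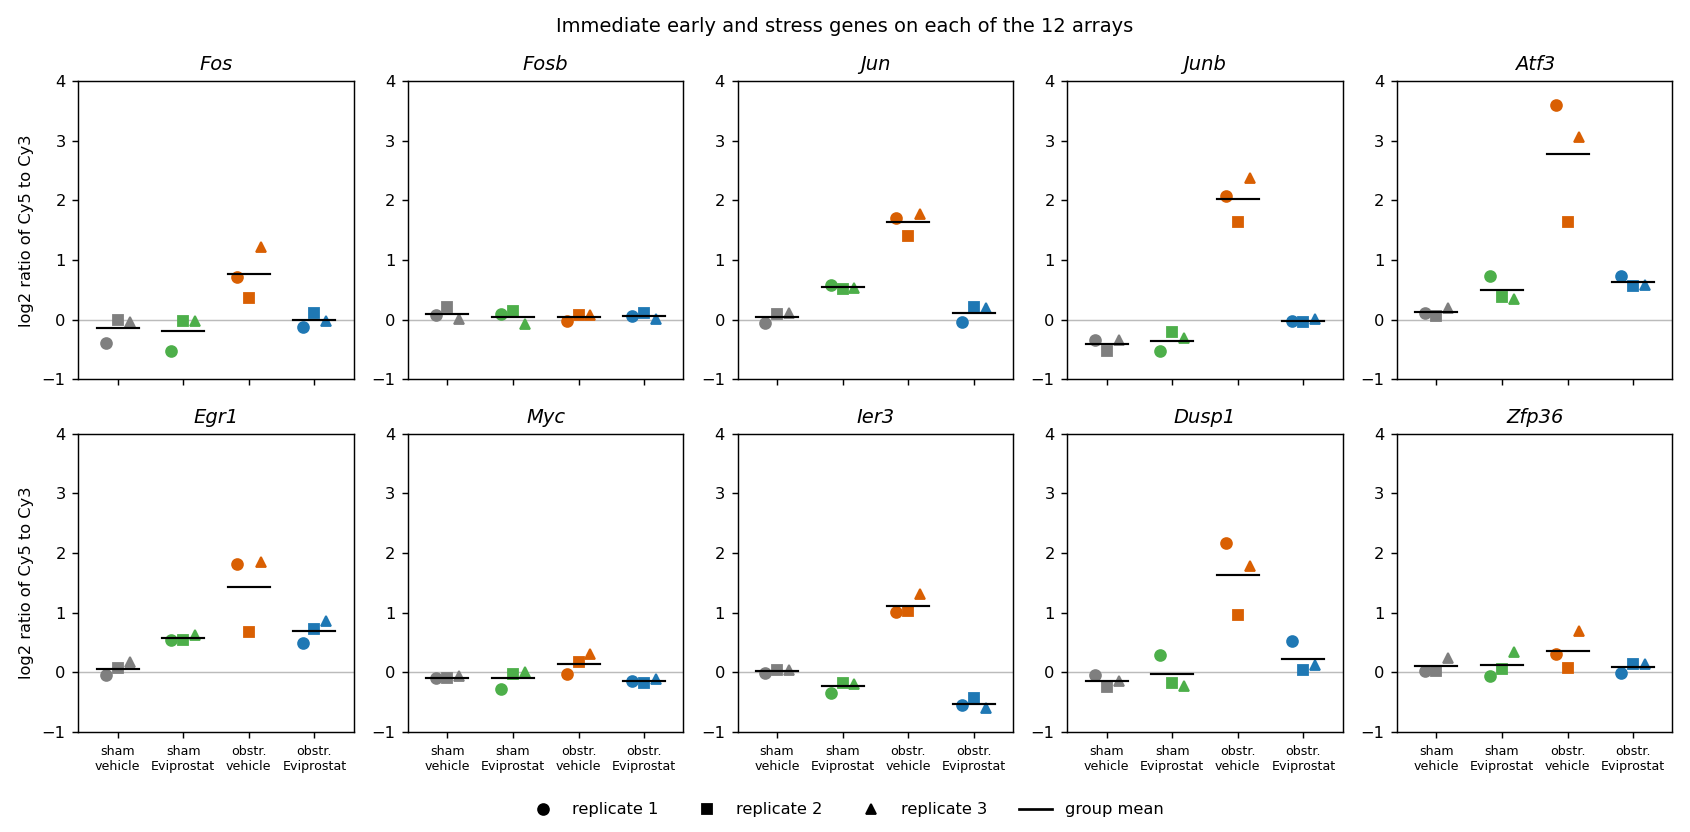
Log2 ratio of Cy5 to Cy3 of each gene (vertical axis) on the 12 arrays by group, with the replicate number as the symbol and the group mean of 3 arrays as a line. The 3 obstruction/vehicle arrays of Jun (1.41 to 1.77) and Junb (1.63 to 2.38) lie above the other 9 arrays, while the 4 groups of Fosb overlap between -0.07 and 0.22.

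Among the AP-1 genes, Fos, the founding partner of the FOS family, gave log2 ratios of -0.39, -0.01 and -0.03 on the sham/vehicle arrays and 0.71, 0.36 and 1.22 on the obstruction/vehicle arrays, in the order of replicates 1, 2 and 3. On the obstruction/Eviprostat arrays it gave -0.12, 0.11 and -0.02. The obstruction/vehicle arrays lay above both other groups with no overlap, and their spread was the widest of the 3. Fos was 0.90 ± 0.20 (standard error) higher with obstruction (adjusted p = 0.0127 by limma) and fell by 0.77 on the log2 scale with Eviprostat (-0.77 ± 0.20, adjusted p = 0.0333). The refit raised these to 1.31 (adjusted p = 0.000545) and -1.10 (adjusted p = 0.00225), and leaving out obstruction/vehicle replicate 2 gave 1.11 and -0.97. Fos had the weakest of the called rises: on slides 2 and 3 alone the rise was 0.81 (adjusted p = 0.0652) and with only the 6 arrays compared the same 0.90 no longer passed (adjusted p = 0.0581). Over the 26 other settings adjusted p for the rise ran from 8.47e-09 to 0.0652, and that for the fall from 7.17e-08 to 0.124, with the call of the fall lost in 8 settings. Among these were leaving out obstruction/vehicle replicate 1 (-0.79, adjusted p = 0.0774) or 3 (-0.54, adjusted p = 0.124), or any one of the obstruction/Eviprostat arrays (-0.83 to -0.71, adjusted p from 0.0743 to 0.105).

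Fosb, the other FOS protein gene, moved least of the 10. Its log2 ratios were 0.08, 0.22 and 0.01 on the sham/vehicle arrays, -0.02, 0.08 and 0.08 with obstruction, and 0.07, 0.11 and 0.02 with obstruction and Eviprostat, so that all groups overlapped. The difference with obstruction was -0.06 (95% interval -0.25 to 0.14, adjusted p = 0.761) and that with Eviprostat 0.02 (-0.18 to 0.21, adjusted p = 0.941). Its intervals lie below the rises of Fos, Jun and Junb, although the probe was well above background on all 12 arrays.

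Jun, the partner shared by AP-1 dimers, was measured by 10 spots per array. Its log2 ratios were -0.05, 0.09 and 0.11 on the sham/vehicle arrays, 1.71, 1.41 and 1.77 with obstruction, and -0.04, 0.22 and 0.19 with obstruction and Eviprostat. The obstruction/vehicle arrays stood clear of both other groups. Jun was 2.99-fold higher with obstruction (1.58 ± 0.11, adjusted p = 1.9e-06) and 2.84-fold lower with Eviprostat than with vehicle in obstructed rats (-1.51 ± 0.11, adjusted p = 3.61e-06). Both calls were kept in all 26 other settings, with differences from 1.37 to 1.70 and from -1.64 to -1.32.

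Junb, which can restrain as well as replace JUN in AP-1, had log2 ratios of -0.34, -0.53 and -0.34 on the sham/vehicle arrays and 2.07, 1.63 and 2.38 with obstruction. With obstruction and Eviprostat they were -0.02, -0.04 and 0.02. The sham/vehicle arrays, on which both dyes carried the same RNA, lay below 0, which is why groups and not single ratios were compared. The rise was 5.39-fold (2.43 ± 0.16, adjusted p = 1.23e-06) and the fall 4.12-fold (-2.04 ± 0.16, adjusted p = 6.32e-06). Both calls were kept in the 26 other settings, in which the rise ran from 1.99 to 2.87.

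Atf3, a stress-induced member of the ATF/CREB family that pairs with JUN proteins, had log2 ratios of 0.11, 0.06 and 0.20 on the sham/vehicle arrays and 3.6, 1.64 and 3.06 with obstruction. With obstruction and Eviprostat it had 0.73, 0.57 and 0.58. These 3 groups did not overlap, while the sham/Eviprostat arrays (0.35 to 0.73) overlapped with obstruction/Eviprostat. The low value of 1.64 came from the array with the negative fitted background. Atf3 was 6.25-fold higher with obstruction (2.64 ± 0.35, adjusted p = 0.000428) and 4.41-fold lower with Eviprostat (-2.14 ± 0.35, adjusted p = 0.00228). After the refit the rise was 8.69-fold (3.12, adjusted p = 3.6e-08) and the fall 5.86-fold (-2.55, adjusted p = 2.68e-07). Without obstruction/vehicle replicate 2 the rise was 3.21 and the fall -2.70. Both calls were kept in all 26 other settings, with adjusted p between 1.02e-12 and 0.0133 for the rise and between 1.28e-11 and 0.0282 for the fall.

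Egr1, a zinc finger factor induced through serum response factor, had log2 ratios of -0.04, 0.07 and 0.17 on the sham/vehicle arrays and 1.82, 0.67 and 1.85 with obstruction. With obstruction and Eviprostat it had 0.49, 0.73 and 0.86, so that the low array of the obstruction/vehicle group lay within the Eviprostat group. The rise with obstruction was 2.60-fold (1.38 ± 0.25, adjusted p = 0.00321). It did not pass on slides 2 and 3 alone (1.14, adjusted p = 0.0569), the only one of 26 settings in which it failed. The difference with Eviprostat in obstructed rats did not pass (-0.75 ± 0.25, adjusted p = 0.0821), with -1.33, 0.07 and -0.99 on slides 1, 2 and 3. It passed with the slide as a block (adjusted p = 0.023), after the refit (-1.09, adjusted p = 2.84e-06) and without obstruction/vehicle replicate 2 (-1.14, adjusted p = 3.6e-05), and over its 26 settings adjusted p ran from 1.77e-08 to 0.39. After the refit the 3 obstruction/vehicle arrays were at 1.82, 1.89 and 1.85, all above the obstruction/Eviprostat arrays.

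Myc, a growth-regulating factor whose message is also short-lived, was measured by 10 spots per array. Its log2 ratios were -0.10, -0.09 and -0.06 on the sham/vehicle arrays, -0.02, 0.17 and 0.31 with obstruction, and -0.14, -0.18 and -0.11 with obstruction and Eviprostat. The obstruction/vehicle arrays lay above these 2 other groups by little, and overlapped with sham/Eviprostat (-0.28, -0.02 and 0.00). Neither the difference with obstruction (0.24 ± 0.10, adjusted p = 0.168) nor that with Eviprostat (-0.30 ± 0.10, adjusted p = 0.0946) passed. The former passed on slides 2 and 3 alone (0.32, adjusted p = 0.0331), with array weights and after the refit with the slide as a block (0.28, adjusted p = 0.0122), within a range of 0.0122 to 0.881. The latter passed with the slide as a block (adjusted p = 0.0205), after the refit (-0.35, adjusted p = 0.0401), and without obstruction/vehicle replicate 1 (-0.38, adjusted p = 0.0452), within a range of 0.00312 to 0.848 over the 26 settings.

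Among the members that are not transcription factors, Ier3, a survival-related gene induced by NF-kappa-B and MAP kinases, had log2 ratios of -0.01, 0.04 and 0.04 on the sham/vehicle arrays and 1.02, 1.03 and 1.31 with obstruction. With obstruction and Eviprostat it had -0.55, -0.43 and -0.60, below the sham/vehicle arrays. The rise was 2.14-fold (1.1 ± 0.10, adjusted p = 1.33e-05) and the fall 3.13-fold (-1.65 ± 0.10, adjusted p = 5.99e-07). The fall was kept in all 26 other settings, and the rise in all but median centring in place of loess, where it was no longer called (adjusted p = 0.129, the highest of its settings, with 1.2e-08 the lowest).

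Dusp1, the nuclear phosphatase that switches MAP kinases off, had log2 ratios of -0.04, -0.25 and -0.15 on the sham/vehicle arrays and 2.17, 0.97 and 1.79 with obstruction. With obstruction and Eviprostat it had 0.52, 0.04 and 0.13, and these 3 groups did not overlap. The sham/Eviprostat arrays (-0.23 to 0.3) overlapped with sham/vehicle and with obstruction/Eviprostat. Dusp1 was 3.46-fold higher with obstruction (1.79 ± 0.26, adjusted p = 0.000676) and 2.67-fold lower with Eviprostat (-1.41 ± 0.26, adjusted p = 0.00408). The refit gave 2.14 and -1.71, leaving out obstruction/vehicle replicate 2 gave 2.13 and -1.75, and both calls were kept in all 26 other settings.

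Zfp36, which encodes the ARE-binding protein tristetraprolin, had log2 ratios of 0.02, 0.02 and 0.25 on the sham/vehicle arrays and 0.31, 0.07 and 0.69 with obstruction. With obstruction and Eviprostat it had -0.01, 0.14 and 0.15. The groups overlapped, and neither difference passed (0.26 ± 0.15, adjusted p = 0.33, and -0.27 ± 0.15, adjusted p = 0.335). After the refit the obstruction/vehicle arrays were at 0.32, 0.73 and 0.69 and both differences passed (0.47, adjusted p = 0.0254, and -0.50, adjusted p = 0.0215). Without obstruction/vehicle replicate 2 neither did (0.40, adjusted p = 0.0773, and -0.41, adjusted p = 0.0795). Over 25 settings adjusted p ran from 0.000209 to 0.759 for the first and from 0.00041 to 0.737 for the second, so for this dim probe the call depended on the background treatment. The size of any change in Zfp36 is uncertain for the same reason, with 0.73 from Cy5 alone and 0.16 with no background correction.

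**Figure D3:**
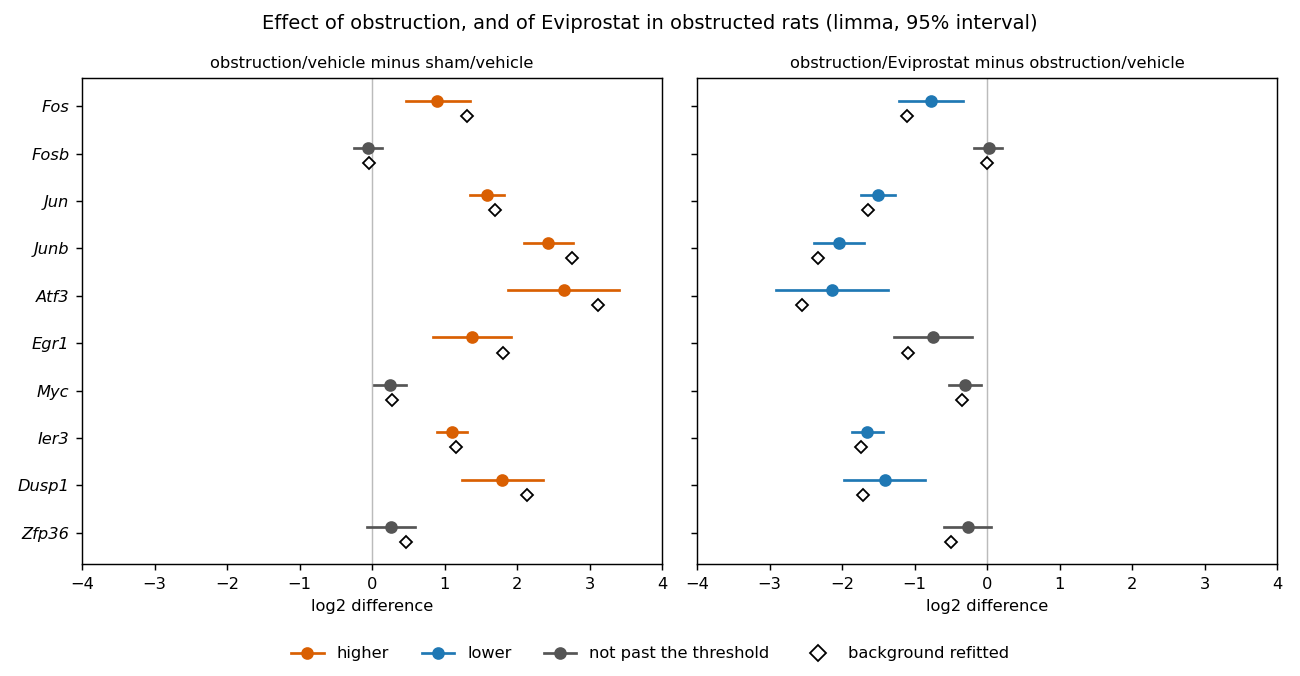
Log2 difference (horizontal axis) of each gene with obstruction under vehicle (left) and with Eviprostat in obstructed rats (right), as filled circles with the 95% interval of the limma fit over 12 arrays, coloured by call, and the value after the refitted background as an open diamond. Junb, Jun, Atf3, Dusp1 and Ier3 lie away from 0 on both sides, and Fosb lies at 0 in both.

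In sham-operated rats Eviprostat was compared with vehicle. Of the 10 genes 1 was higher, Jun, and 0 were lower, where 0.87% of all probes were called higher and 0.659% lower. Jun was at 0.59, 0.52 and 0.53 on the sham/Eviprostat arrays, all above the sham/vehicle arrays, a 1.41-fold rise (0.50 ± 0.11, adjusted p = 0.0446). That call is a narrow one: it was lost in 12 of 26 settings, with adjusted p from 0.000403 to 1. Leaving out any one sham/vehicle or sham/Eviprostat array gave 0.45 to 0.53 (adjusted p from 0.109 to 0.159), and leaving out obstruction/Eviprostat replicate 2 or 3 left 0.50 (adjusted p = 0.0717 and 0.0764). Egr1, at 0.55, 0.55 and 0.62, did not overlap with sham/vehicle either but did not pass (0.51 ± 0.25, adjusted p = 0.517). It passed after the refit (0.53, adjusted p = 0.00773) and without obstruction/vehicle replicate 2 (0.51, adjusted p = 0.0237), within a range of 0.000248 to 0.848. After the refit 2 genes were higher, where 1.3% of all probes were. Atf3 (0.73, 0.38 and 0.35) differed by 0.36 ± 0.35 (adjusted p = 0.867) and Ier3 (-0.34, -0.17 and -0.19) by -0.26 ± 0.10 (adjusted p = 0.321). The sham/Eviprostat arrays lay wholly above the sham/vehicle arrays for 3 genes (8.55% of all probes) and below them for 1 (10.5%).

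The obstructed rats given Eviprostat were then compared with the sham rats. Against sham/vehicle, which shares arrays with the first comparison, 0 genes were higher and 1 was lower, where 0.175% of all probes were called higher and 0.119% lower. The gene was Ier3, 1.46-fold lower (-0.55 ± 0.10, adjusted p = 0.0381), a call lost in 13 of 26 settings (adjusted p from 9.17e-05 to 1). These include leaving out any one sham/vehicle or obstruction/Eviprostat array (-0.60 to -0.51, adjusted p from 0.112 to 0.254) and leaving out sham/Eviprostat replicate 2 or 3 (-0.55, adjusted p = 0.0767 and 0.072). Egr1 (0.63 ± 0.25, adjusted p = 0.744), Atf3 (0.50 ± 0.35, adjusted p = 1), Junb (0.39 ± 0.16, adjusted p = 0.789) and Dusp1 (0.38 ± 0.26, adjusted p = 1) had positive differences that did not pass, with 95% intervals of 0.09 to 1.17, -0.27 to 1.27, 0.04 to 0.73 and -0.18 to 0.93. A p that misses the threshold does not show that these genes were back at the sham level. Without obstruction/vehicle replicate 2 Egr1 passed (adjusted p = 0.022). After the refit it was 1.65-fold higher (0.72, adjusted p = 0.00203, within a range of 2.47e-05 to 1 over its settings), where 0.421% of all probes were called higher, and Ier3 remained lower (-0.58, adjusted p = 0.0139), where 0.288% were called lower. Before the refit the obstruction/Eviprostat arrays lay wholly above the sham/vehicle arrays for 4 genes (8.81% of all probes) and below them for 2 (8.45%).

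Against sham/Eviprostat, so under the same drug, 0 of the 10 genes were called by limma, where 0.97% of all probes were called higher and 1.31% lower. At an unadjusted p under 0.05 there were 2 genes, Jun (-0.42 ± 0.11, adjusted p = 0.0729) and Ier3 (-0.29 ± 0.10, adjusted p = 0.176). Jun passed with the slide as a block (adjusted p = 0.021), after the refit (-0.43, adjusted p = 0.0259), where 1.77% of all probes were called lower, and without obstruction/vehicle replicate 2 (adjusted p = 0.0285), within a range of 0.00198 to 1. The widest of the other intervals was that of Atf3, from -0.63 to 0.91.

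**Figure D4:**
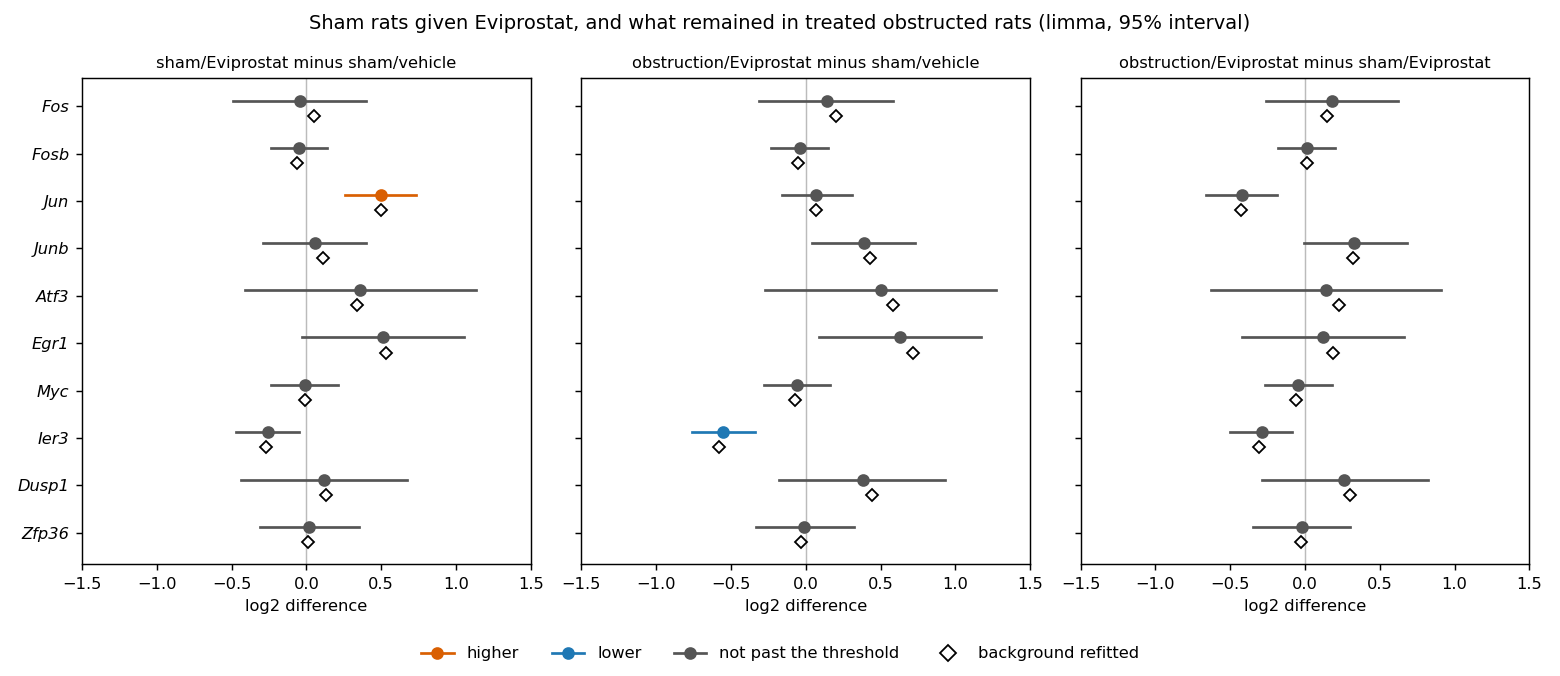
Log2 difference (horizontal axis) of each gene with Eviprostat in sham rats and of treated obstructed rats against each sham group, as circles with the 95% interval of the limma fit and open diamonds for the refitted background. Jun (left, 0.50) and Ier3 (centre, -0.55) are the filled coloured points, and the interval of Egr1 in the centre runs from 0.09 to 1.17.

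Whether Eviprostat acted differently in obstructed and in sham rats was tested as an interaction. Of the 10 genes 0 had a higher and 6 a lower effect in obstructed rats, where 3.78% of all probes were called higher and 4.89% lower. They were Atf3 (-2.50 ± 0.50, adjusted p = 0.00891), Junb (-2.10 ± 0.22, adjusted p = 0.000116), Jun (-2.0 ± 0.15, adjusted p = 8.46e-06), Dusp1 (-1.53 ± 0.36, adjusted p = 0.0219), Ier3 (-1.39 ± 0.14, adjusted p = 5.91e-05) and Egr1 (-1.26 ± 0.35, adjusted p = 0.0447). The Jun interaction joins a fall of 1.51 in obstructed rats with a rise of 0.50 in sham rats. Egr1 lost the call in 14 of 25 settings (adjusted p from 1.49e-08 to 0.227), among them each array left out other than obstruction/vehicle replicate 2 (-1.34 to -1.06, adjusted p from 0.0687 to 0.103). Dusp1 lost it without sham/vehicle replicate 2 or 3, obstruction/vehicle replicate 3 or obstruction/Eviprostat replicate 2 or 3 (-1.53 to -1.43, adjusted p from 0.0548 to 0.0652, the highest of all its settings, with 7.26e-08 the lowest). Fos did not pass (-0.72 ± 0.29, adjusted p = 0.158), but did with the slide as a block (adjusted p = 0.0389) and after the refit (-1.16, adjusted p = 0.0173), within a range of 2.52e-06 to 0.371. With Fos, 7 genes were lower after the refit, where 9.72% of all probes were. Leaving out obstruction/vehicle replicate 2 also gave 7, with Egr1 at -1.65 and Fos at -0.93.

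The members differed in how they ran over the 12 arrays. Pearson correlations, which rest on the same arrays and mostly on 1 group of 3, were 0.99 between Atf3 and Dusp1, 0.95 between Junb and Atf3 and 0.92 between Jun and Junb. These and the nearest profiles below are given only for normexp fitted to all spots. Under it Atf3 (1.64), Dusp1 (0.97) and Egr1 (0.67) were low together on obstruction/vehicle replicate 2. After the refit they stood at 3.14, 1.97 and 1.89 there, so part of the likeness may reflect the background correction. Egr1 and Ier3 were less alike, at 0.62. When Eviprostat was given, the Egr1 arrays lay above and the Ier3 arrays below the sham/vehicle arrays. On obstruction/vehicle replicate 2 Egr1 was low (0.67) and Ier3 was not (1.03). What lowered this correlation was not tested. Fosb had negative correlations with all other members, from -0.42 to -0.07. Among 17042 other named genes, the profile most like that of Junb was Nfkb2, an NF-kappa-B subunit gene (0.995), that of Jun was Ldha, the lactate dehydrogenase A gene (0.994), and that of Dusp1 was Xdh, the xanthine dehydrogenase gene (0.993). For Atf3 it was RGD1562156 (0.996), followed by the circadian repressor gene Bhlhe40 (0.995). Egr1 ran most like Thbs4, a thrombospondin gene (0.988), and Ier3 like Cdkn1a, the gene of the cell cycle inhibitor p21 (0.986), which differed by 0.70 with obstruction and -0.86 with Eviprostat. Fos ran most like Tgif1 (0.985), Myc like Kdsr (0.969), Zfp36 like Runx1t1 (0.942) and Fosb like Relt (0.881).

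The relatives and partners of these genes were described from lists. Their counts stand beside the shares of all probes called. With obstruction these were 7.16% higher and 4.45% lower, and with Eviprostat in obstructed rats 3.9% higher and 5.89% lower. After the refit 12.8% were higher with obstruction and 11.7% lower with Eviprostat. Of 17 AP-1 and ATF partners 9 were higher and 0 lower with obstruction (median 0.38), and 0 were higher and 7 lower with Eviprostat in obstructed rats (median -0.21). After the refit 13 were higher and 8 lower, and without obstruction/vehicle replicate 2 there were 10 and 8. Batf, an AP-1 factor of immune cells, was at 2.82 ± 0.40 and -2.77 ± 0.40 in the 2 comparisons, and Cebpd, an inflammation-induced C/EBP factor, at 3.37 ± 0.11 and -3.31 ± 0.11. Cebpb, its relative, was at 1.68 ± 0.20 and -1.53 ± 0.20. Fosl2 (0.71 and -0.71) and Jund (0.66 and -0.74), of the FOS and JUN families, passed in both, while Fosl1 did not (0.28, adjusted p = 0.187, and -0.21, adjusted p = 0.352).

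Of 20 other immediate early transcription factors 12 were higher and 0 lower with obstruction (median 0.61) and 0 higher and 10 lower with Eviprostat (median -0.50). After the refit 14 rose and 13 fell, and without obstruction/vehicle replicate 2 there were 14 and 12. Bhlhe40 was at 1.82 and -1.56, Klf6, a zinc finger factor, at 1.62 and -1.10, and Nr4a3, a nuclear receptor, at 1.43 and -1.39. The list was not uniform: Ier2 rose (0.90, adjusted p = 0.0337) and its -0.47 with Eviprostat did not pass (adjusted p = 0.287). Egr2 (0.65, adjusted p = 0.107) and Egr3 (-0.01, adjusted p = 0.965), the relatives of Egr1, did not pass with obstruction, nor did Nr4a1 (0.04, adjusted p = 0.91) and Srf, which encodes serum response factor (-0.04, adjusted p = 0.959). With Eviprostat these 4 did not pass either, at -0.40, -0.01, -0.07 and -0.38. Of 29 other immediate early and stress effectors 18 were higher and 0 lower with obstruction (median 0.72) and 0 were higher and 16 lower with Eviprostat (median -0.71), with 21 and 20 after the refit and also without obstruction/vehicle replicate 2. The kinase gene Pim1 was at 2.99 and -3.09, the heat shock gene Hspa1a at 2.46 and -2.02, and Nfkbia, the NF-kappa-B inhibitor, at 2.36 and -2.45. In the factor list 1 gene was well above background on no sham/vehicle array, and in the effector list 1 on no obstruction/Eviprostat array.

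A list of other MAP kinase phosphatases also held Sprouty and Spred genes, which do not encode phosphatases. Of its 15 tested genes, 1 was higher with obstruction (median 0.14), where 7.16% of all probes were. With Eviprostat 1 was lower (median -0.22), where 5.89% were. Both counts are near those shares. The gene was in both cases Dusp6, the ERK phosphatase (2.10 ± 0.22, adjusted p = 5.28e-05, and -1.67 ± 0.22, adjusted p = 0.000392). Dusp2 was near the threshold (0.75, adjusted p = 0.0551, and -0.75, adjusted p = 0.0608), and Dusp4 (0.14 and -0.22) and Dusp5 (0.19 and -0.28) did not pass. After the refit 3 were higher and 4 lower, and without obstruction/vehicle replicate 2 there were 3 and 3. Of 24 upstream MAP kinase, SRF and CREB pathway genes 5 were higher and 1 lower with obstruction (median 0.13) and 0 higher and 5 lower with Eviprostat (median -0.06). Map3k8, a kinase that activates ERK in inflammatory signalling, was at 1.94 and -1.84, Map2k1 at 0.79 and -0.60 and Mapkapk2 at 0.63 and -0.66. The refit gave 9 higher and 1 lower with obstruction, and 7 lower with Eviprostat, and leaving out obstruction/vehicle replicate 2 gave 6, 1 and 6.

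Around Zfp36, a list of ARE-binding proteins also held Cnot1, Cnot7, Cnot8 and Pabpc1, which are not ARE-binding proteins themselves. Of its 11 genes 2 were higher with obstruction and 2 lower with Eviprostat (medians -0.01 and -0.01). Neither the refit nor leaving out obstruction/vehicle replicate 2 changed these counts. The genes were the Zfp36 relatives Zfp36l1 (0.81 ± 0.10 and -0.93 ± 0.10) and Zfp36l2 (0.91 ± 0.15 and -0.92 ± 0.15). Of 19 known ZFP36 mRNA targets 12 were higher and 0 lower with obstruction (median 1.33), and 0 were higher and 11 lower with Eviprostat (median -1.37), with 14 and 14 after the refit and 13 and 13 without obstruction/vehicle replicate 2. The chemokine genes Cxcl2 (7.28 and -7.05), Cxcl1 (4.84 and -4.76) and Ccl2 (3.95 and -3.22) had the greatest rises of that list. Of 22 known AP-1 and EGR1 targets 10 were higher and 0 lower with obstruction (median 0.46), and 0 were higher and 11 lower with Eviprostat (median -0.44), with 13 and 13 after the refit and 14 and 14 without obstruction/vehicle replicate 2. Timp1, an inhibitor of metalloproteinases, was at 4.21 and -2.04, Hmox1, heme oxygenase 1, at 2.42 and -2.36, and Cd44 at 2.05 and -2.05. Nab2, the EGR1 corepressor gene, did not pass (0.48, adjusted p = 0.108, and -0.37, adjusted p = 0.243). In the ZFP36 target list 1 gene was well above background on no sham/vehicle, 2 on no sham/Eviprostat and 1 on no obstruction/Eviprostat array. In the AP-1 and EGR1 target list this held for 1 gene in each Eviprostat group. Obstruction/vehicle had 0 such genes in either list. A gene that passes the brightness filter through 1 group alone is bound to favour that group.

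Of 24 MYC network genes and MYC targets 1 was higher, Mxd1, an antagonist of MYC (0.73, adjusted p = 0.00356), and 1 lower, Pa2g4 (-0.48, adjusted p = 0.0269), with a median of 0.12. These counts lie near or below the 7.16% of all probes called higher and 4.45% called lower. With Eviprostat 1 was higher and 2 were lower (median -0.04), Mxd1 among the latter at -0.73. Max, the partner of MYC (-0.03 and 0.20), and Odc1, the ornithine decarboxylase gene and a classic MYC target (-0.01 and 0.52), did not pass. After the refit, and also without obstruction/vehicle replicate 2, 1 was higher and 3 were lower with obstruction, and 2 were higher and 3 lower with Eviprostat.

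**Figure D5:**
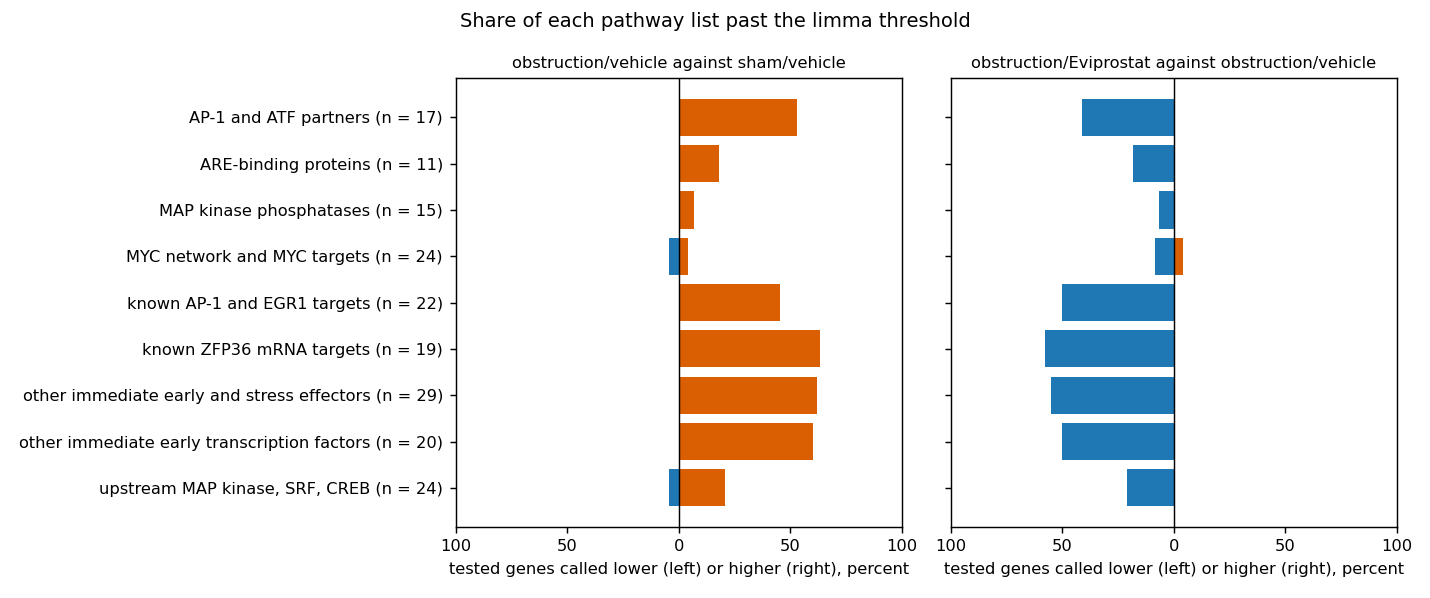
Share of the tested genes of each list (horizontal axis, percent) that limma called higher (orange, to the right) or lower (blue, to the left) with obstruction under vehicle (left panel) and with Eviprostat in obstructed rats (right panel). The immediate early factor and effector lists reach 12 of 20 and 18 of 29 higher on the left, and the MYC list 1 of 24.

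Markers of other cells also differed between the groups, though not all in the same way. All 11 macrophage and monocyte markers tested were higher with obstruction, with array means between 1.36 and 2.04 on the obstruction/vehicle arrays, 0.17 and 0.26 on the obstruction/Eviprostat arrays, -0.09 and 0.06 on the sham/Eviprostat arrays and -0.08 and 0.04 on the sham/vehicle arrays. Of 10 neutrophil markers 6 were higher (1.27 to 2.13, against 0.04 to 0.10 with Eviprostat) and of 8 fibroblast markers 7 (1.72 to 2.26, against 0.38 to 0.51). Higher too were 4 of 6 smooth muscle, 3 of 4 urothelial and 2 of 7 endothelial markers, with 1 endothelial marker lower. Among 8 lymphocyte markers 1 was higher. Over all probes 7.16% were called higher and 4.45% lower, so the lymphocyte count is near that share. The neutrophil markers S100a8 and Mmp8 were well above background on only 3 arrays each. In each group but obstruction/vehicle, 2 neutrophil markers were so on no array. A marker that passes the brightness filter through 1 group alone is bound to favour that group. Of 11 prostate epithelial markers 1 was higher and 5 lower (-0.42 to -0.24). After the refit 7 neutrophil, 8 fibroblast, 4 urothelial and 4 endothelial markers were higher, where 12.8% of all probes were, and 6 prostate epithelial markers lower. Without obstruction/vehicle replicate 2 these counts were 6, 8, 3, 3 and 6. On the sham/Eviprostat arrays, where Jun was called higher, fibroblast markers stood at 0.42 to 0.67, against -0.04 to 0.07 on the sham/vehicle arrays. There 2 of 8 fibroblast and 2 of 6 smooth muscle markers were called higher, where 0.87% of all probes were. Seminal vesicle and coagulating gland markers were higher on the obstruction/vehicle arrays (5.42 to 6.05) and the sham/Eviprostat arrays (5.0 to 5.08) than on the obstruction/Eviprostat (0.58 to 1.02) and sham/vehicle arrays (0.07 to 0.09), and all 6 were called higher in both of the first groups against sham/vehicle. Skeletal muscle markers had 6 of 7 lower with obstruction (-1.61 to -1.42) and stood at 1.24 to 1.40 on the sham/Eviprostat arrays. On the sham/Eviprostat arrays, where the seminal vesicle markers were also high, the 10 genes differed from sham/vehicle by -0.26 (Ier3) to 0.51 (Egr1), with Jun at 0.50 the one gene called. The part of these cells in the differences of the 10 genes was not tested.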

How the data were processed

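RNA of pooled prostate tissue was hybridised to 12 Agilent arrays in 4 groups of 3, with 1 array of each group on each of 3 slides. Each group kept one position on every slide, which makes position and group inseparable here, and slide 1 was scanned apart from slides 2 and 3. Labelling used 1500 ng of RNA from the sham/vehicle group, and 300 ng from each other group. The authors deposited spot and background intensities, written by Feature Extraction 9.5.1.1 as the headers state, and a log10 ratio of red to green processed signal. The series' own table of deposited values equals that log10 ratio, with a largest difference of 0.

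From the intensities, log2 ratios were made with normexp (offset 50) and loess within arrays, in limma 3.58.1 under R 4.3.3 (data.table version 1.17.8, and matplotlib 3.10.9 in Python 3.11.15 for figures). Control and outlier spots were left out, saturated spots kept and spots of a probe averaged. Probes with Cy5 well above background on at least 3 of 12 arrays were kept. All 12 arrays were fitted at once with a mean for each group, which left 8 residual degrees of freedom. P-values were adjusted by Benjamini-Hochberg across the 36098 probes, with a threshold of 0.05. The fit was tested on simulated data with independent noise on each array, so that test did not cover slide effects or the background correction. The number of arrays limits precision.

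Arrays of the same number shared a slide, and their deviations correlated in all 18 pairs (0.155 to 0.779), so numbers pair arrays. The blocked value is given where it changes a call. The 10 genes and the lists were chosen with earlier results of these data known. Named besides the 10 were 18 fixed relatives, up to 3 genes of a list with the greatest called difference under obstruction, and the nearest profile of each member. Gene names were updated through RefSeq GRCr8.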

Additional observations from a re-analysis of the deposited data

Results flagged for a closer look

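The effect of Eviprostat differed between obstructed and sham rats for 6 of the 10 genes by limma's interaction test. As log2 effect in obstructed minus in sham rats, the values were -2.50 for Atf3, -2.10 for Junb, -2.0 for Jun, -1.53 for Dusp1, -1.39 for Ier3 and -1.26 for Egr1. The Egr1 and Dusp1 calls were lost in 14 and 5 of 25 other settings. Groups of 3 arrays are too small for a test of single outlying arrays.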

How the results depend on the processing

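No called difference of a member changed sign under the alternatives run, while some small differences that were not called crossed 0, as those of Fos, Dusp1 and Zfp36 in sham rats did. With obstruction, 7 genes were called without each array in turn, and with Eviprostat in obstructed rats 5 to 7. For the interaction 4 to 7 were called. The calls in the other 3 comparisons, with 1, 0 and 1 genes, were less stable. The refitted background and its combination with the replicate block were chosen after seeing the data. Apart from the blocked values given in the report, the replicate block changed no call of a member. Fits without 1 array leave a group with 2.

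In the order obstruction, Eviprostat in obstructed rats, Eviprostat in sham rats, treated obstructed against sham/Eviprostat, treated obstructed against sham/vehicle, and interaction, the probes called were 4191, 3536, 552, 823, 106 and 3127. The replicate block gave 9125, 8494, 2282, 3157, 897 and 7919. Median centring in place of loess gave 1788, 1329, 64, 140, 10 and 1017. The scanner software's log ratio gave 14480, 13521, 3423, 4279, 1924 and 11711. Array weights gave 9036, 7808, 5750, 7206, 3413 and 9326. No background correction gave 7911, 7158 and 5830 in the first, second and last, and 205 for treated obstructed against sham/vehicle. The refit gave 7718, 6832 and 5713 in the first, second and last and 256 for treated obstructed against sham/vehicle. With the replicate block the refit gave 14073, 13183, 3847, 4987, 2694 and 11643. Slides 2 and 3 alone gave 1135 for Eviprostat in sham rats, and 2275 and 339 for treated obstructed against sham/Eviprostat and sham/vehicle. The 6 arrays compared gave 1834 and 1768 in the first and second and 269 for treated obstructed against sham/vehicle. Cy5 alone gave 5374 in the second and 288 for treated obstructed against sham/vehicle, where an offset of 10 gave 69 and an intensity trend with robust spread 58. Without each array in turn the counts ran from 2403 to 7196, 1890 to 6374, 231 to 906, 352 to 1171, 36 to 191 and 1819 to 5857.

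For Eviprostat in sham rats, 0 members were called with median centring, an offset of 10, slides 2 and 3 alone, or the trend and robust spread. There were 2 with the scanner ratio, Cy5 alone, the refit or only 6 arrays, 3 with array weights, 4 with the refit and replicate block, and 0 to 2 without one array. For treated obstructed against sham/Eviprostat, the replicate block, Cy5 alone and the refit each gave 1, the scanner ratio and array weights 2, the refit with replicate block 3, and leaving out one array 0 to 1. For treated obstructed against sham/vehicle, median centring, an offset of 10, slides 2 and 3 alone and the trend gave 0. Cy5 alone, the refit and only 6 arrays gave 2, array weights 3, the scanner ratio 4, the refit with replicate block 5, and leaving out one array 0 to 2. Without background correction 1 was called there too, but it was Egr1, higher, and not Ier3.

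Higher probes made up 61.6%, 39.8%, 56.9%, 42.5%, 59.4% and 43.6% of calls, and 90.2%, 9.93%, 96.9%, 23.6%, 100% and 10.5% with median centring. With the scanner ratio they made up 40.9% and 57.8% in the first and second and 55.8% in the interaction, and without background correction 49.3% for treated obstructed against sham/vehicle. The scanner ratio moved the median of all probes to -0.10 with obstruction. The 7 and 6 calls of the members kept their directions under it.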
